A study of Rattus norvegicus with 2 samples.

Results

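Expression of 9 rat genes of the renin-angiotensin system was examined in bone marrow-derived stromal cells, which are fibroblast-like cells cultured from marrow. With earlier results of these data known, the genes were chosen by name. They were taken as receptors, peptidases and binding partners of the pathway to which the transgenes belong. They are Agt, Ace, Enpep, Mme, Agtr1a, Agtr1b, Agtr2, Agtrap and Atp6ap2. All 9 had a probe, 10 probes in all, among 30367 probes that covered 15168 genes with a current symbol. Cells of normal, wild-type Sprague-Dawley rats (control) were compared with cells of double transgenic rats of Sprague-Dawley origin (transgenic), which harbour the human angiotensinogen gene together with a second human gene of the same system. Both groups were plated at 150000 cells per well of a 6-well plate and lysed below confluency, and no further treatment is named in the labels. The promoters of the transgenes, the age and number of the rats, and the number of cultures behind each array are not given in the sources used here. Each group had 1 array, so that no test between groups was possible, no p-value is given and every difference describes these 2 arrays.

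In the renin-angiotensin system the protein angiotensinogen is cut to the decapeptide angiotensin I, and angiotensin-converting enzyme trims that to the active octapeptide angiotensin II. Angiotensin II acts on type 1 receptors, which couple to Gq proteins, raise calcium and constrict vessels, and on type 2 receptors, which often oppose them. Aminopeptidases and neprilysin then cut the peptides into shorter forms. Rodents carry a pair of type 1 receptor genes, Agtr1a and Agtr1b, where humans carry a single one. In marrow a local form of the system has been described, with receptors on stromal and blood-forming cells.

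Sequences are shown for the start regions of 4 genes, because the values below turn on them: Agtr1a, whose signal was found on the transgenic array, its near copy Agtr1b, and Enpep and Mme, which differed in opposite directions. Each run is RefSeq sequence of the rat build GRCr8, from 250 bases before to 50 bases after the annotated start, 5′ to 3′ in the direction of the gene. Capitals mark the letters that matched any of 8 short motifs, read on both strands.
Agtr1a, chr17:34435383-34435682, minus strand: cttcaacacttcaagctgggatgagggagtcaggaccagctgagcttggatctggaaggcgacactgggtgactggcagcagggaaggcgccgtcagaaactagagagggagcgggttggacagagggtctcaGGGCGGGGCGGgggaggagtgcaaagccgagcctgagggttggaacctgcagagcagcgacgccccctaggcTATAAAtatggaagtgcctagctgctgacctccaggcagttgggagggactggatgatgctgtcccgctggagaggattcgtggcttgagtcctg
Agtr1b, chr2:104849213-104849512, minus strand: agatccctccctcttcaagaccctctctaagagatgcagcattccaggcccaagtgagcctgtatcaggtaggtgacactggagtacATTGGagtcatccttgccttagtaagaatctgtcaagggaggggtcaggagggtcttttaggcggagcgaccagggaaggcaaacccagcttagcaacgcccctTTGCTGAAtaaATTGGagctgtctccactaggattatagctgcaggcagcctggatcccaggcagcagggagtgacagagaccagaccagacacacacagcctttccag
Enpep, chr2:220526169-220526468, minus strand: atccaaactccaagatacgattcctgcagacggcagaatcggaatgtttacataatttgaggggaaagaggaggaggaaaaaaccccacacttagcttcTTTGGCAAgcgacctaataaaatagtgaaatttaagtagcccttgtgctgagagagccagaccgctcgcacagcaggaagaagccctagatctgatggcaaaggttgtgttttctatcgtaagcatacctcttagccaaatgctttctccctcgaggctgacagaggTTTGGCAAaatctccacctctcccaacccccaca
Mme, chr2:149872247-149872546, plus strand: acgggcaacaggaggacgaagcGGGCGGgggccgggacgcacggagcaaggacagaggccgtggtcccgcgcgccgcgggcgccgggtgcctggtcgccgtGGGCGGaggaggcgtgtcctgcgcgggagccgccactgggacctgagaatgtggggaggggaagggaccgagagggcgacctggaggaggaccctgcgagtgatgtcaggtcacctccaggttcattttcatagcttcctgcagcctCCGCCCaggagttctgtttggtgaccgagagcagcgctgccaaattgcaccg

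The motifs searched were the TATA box (TATAAA, in 14.2% of 33469 rat start regions of the same length), the CCAAT box (CCAAT, 37.5%), the GC box (GGGCGG, 33.1%), the AP-1 site (TGANTCA, 7.33%), a C/EBP site (TTGCNNAA, 10.6%), the start of an NF-kappaB site (GGGNNTTTC, 4.53%), the core of the hypoxia response element (ACGTG, 19.3%) and a STAT site (TTCNNNGAA, 8.87%). The Agtr1a window held a TATA box that begins at -45 relative to the start and a pair of overlapping GC boxes at -117 and -112. The Agtr1b window held neither of these motifs. It had 2 CCAAT boxes on the opposite strand, at -163 and -48, and 1 C/EBP match at -59. The Enpep window held 2 C/EBP matches on the opposite strand, at -151 and 17. The Mme window held 3 GC boxes, at -228, -149 and, on the opposite strand, -2, and was rich in G and C (68.7%), against 60.7% for Agtr1a, 53.7% for Agtr1b, 47.0% for Enpep and a median of 51.7% over all start regions. Among members whose windows are not shown, Ace also held a TATA box, at -42 on the opposite strand, and GC boxes at -151, -147, -86 and -29. GC boxes also lay in the windows of Agtrap (-42) and Atp6ap2 (-189 and -127, opposite strand). A match is a run of letters and was not tested as a binding site.

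Signals are given in the scanner's processed units, a linear brightness after background subtraction. The arrays differed in overall brightness, with a 75th percentile over probes of 905 units in control and 1080 units in transgenic. Each difference is therefore the transgenic minus the control log2 signal after this percentile was subtracted, a step that lowers the transgenic array by 0.25 log2 against control. The error beside a difference is the software's own modelled error of the spots on both arrays, which is technical and holds nothing of the spread between animals. A probe counted as detected when over 50% of its spots were flagged well above background. The lowest detected signal was 15.3 units in control and 15.9 units in transgenic, and no spot was saturated. A difference of at least 2-fold (1 log2) served as a size rule.

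Agt encodes angiotensinogen, the precursor that all angiotensin peptides are cut from. The rat Agt probe was not well above background on either array. Its 2 spots read 3.23 and 3.38 units in control and 8.93 and 14.7 units in transgenic. Both transgenic spots were flagged positive and significant against background and neither control spot was, but the probe stayed under the lowest detected signal of its array, so no fold is given. Whether this probe also binds the human transcript was not tested.

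Ace encodes angiotensin-converting enzyme, a peptidase anchored in the cell membrane. The 2 spots of its detected probe read 53.2 and 66.7 units in control and 45.5 and 76.7 units in transgenic. The transgenic spots lay on either side of the control spots, so that the arrays overlapped. The difference was -0.27 ± 0.24 log2, about as large as its modelled error. A second Ace probe with 1 spot was not well above background, at 4.05 units in control and 4.20 units in transgenic.

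Enpep encodes glutamyl aminopeptidase, which removes the first residue of angiotensin II and yields angiotensin III. Its 2 spots read 646.3 and 646.3 units in control and 2767 and 2866 units in transgenic. The transgenic spots were far above the control spots, and Enpep was 3.65-fold higher in transgenic (1.87 ± 0.20 log2). This was rank 503 from the highest among the 15502 genes or unmatched transcripts detected on both arrays.

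Mme encodes neprilysin, a membrane endopeptidase that cuts angiotensin I to angiotensin-(1-7) and also degrades natriuretic peptides and enkephalins. Its 2 spots read 282 and 309 units in control and 112 and 127 units in transgenic. Here the control spots were the higher ones without overlap, and Mme was 2.96-fold lower in transgenic (-1.56 ± 0.21 log2). It held rank 653 from the lowest.

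Agtr1a encodes the type 1a receptor, the main angiotensin II receptor of rodent vessels and kidney. It was measured on 10 repeated spots of 1 probe. In control the spots ranged from 5.03 to 13.7 units with a median of 10.7 units, and in transgenic from 487 to 546 units with a median of 524 units. Every transgenic spot was thus more than an order of magnitude above every control spot. All 10 spots were well above background in transgenic and 0 of 10 in control, where all 10 were nonetheless positive and significant against background. Since the control signal lay under the lowest detected one, Agtr1a was given a bound: it was at least 28.6-fold higher in transgenic (4.84 log2). The bound was 6.50-fold under normexp background correction. In the authors' processed log2 values the plain difference of the probe was 2.81, from 6.27 in control to 9.08 in transgenic, which is a measured difference and no bound. In bulk RNA, a larger share of receptor-bearing cells and more receptor RNA per cell cannot be told apart.

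Agtr1b encodes the second type 1 receptor of rodents, whose protein is nearly the same as that of Agtr1a. Its 2 spots read 3.24 and 4.33 units in control and 3.37 and 4.50 units in transgenic, and 0 of 4 spots were flagged positive and significant. The Agtr1b probe was at background on the array on which the Agtr1a probe was bright. The probes' sequences were not compared, so whether the Agtr1a probe also binds Agtr1b transcripts was not tested. Agtr2, the type 2 receptor, which is abundant in fetal tissue, gave the same picture, with 3.003 and 3.94 units in control and 3.13 and 4.08 units in transgenic. No fold is given for either receptor. A level under background is not evidence that the gene was silent, only that it was not detectable here.

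Agtrap encodes a membrane protein that binds the tail of the type 1 receptor and promotes its internalisation. Its 2 spots read 2492 and 2529 units in control and 5237 and 5237 units in transgenic. The spots did not overlap, yet after scaling the difference was 0.81 ± 0.20 log2 (1.75-fold higher in transgenic) and stayed within the size rule. Atp6ap2 encodes the prorenin receptor, which is also an accessory subunit of the proton pump V-ATPase. It read 1106 and 1217 units in control and 1762 and 1908 units in transgenic. Its difference was 0.41 ± 0.20 log2 (1.32-fold higher), which is 1.99 times the modelled error.

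**Figure D1:**
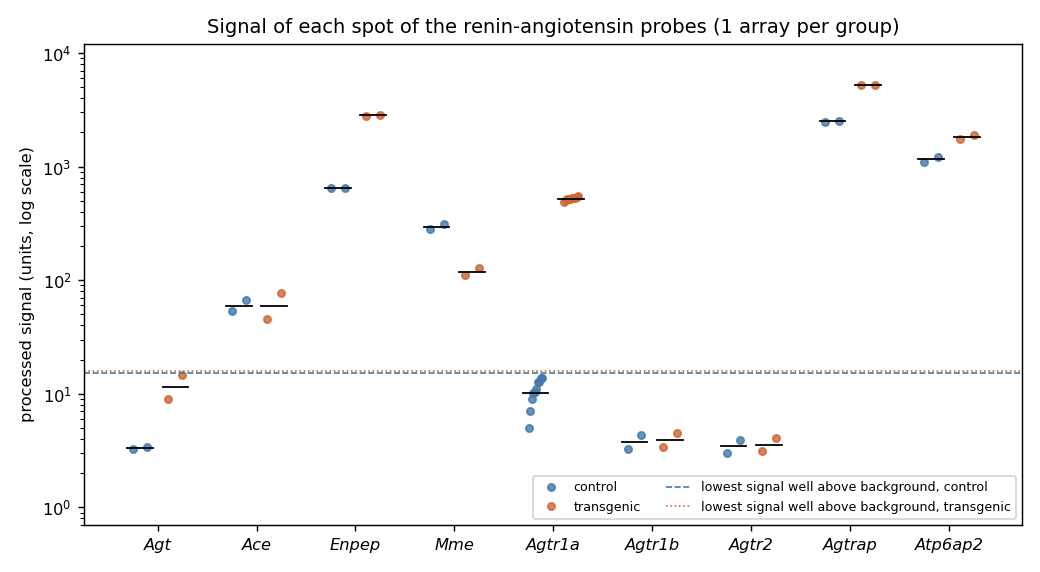
Processed signal (units, log scale) of every spot of the 9 genes, for the probe that stands for each gene, on the control array (blue) and the transgenic array (orange). Points are spots, short black lines their geometric mean, and the horizontal lines the lowest detected signal of each array (15.3 and 15.9 units). The Agtr1a spots lie between 5.03 and 13.7 units in control and between 487 and 546 units in transgenic, while Agt, Agtr1b and Agtr2 lie under the lines on both arrays.

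Of the 9 genes, 5 were detected on both arrays, 1 on the transgenic array only and 3 on neither. Among the 5, Enpep was past the size rule on the higher side, where 10.5% of all genes detected on both arrays lay, and Mme on the lower side, where 10.3% lay. The count of 2 of 5 is too small to be set against these shares. The median over the 5 was 0.41 log2, beside -0.07 log2 over all such genes. Agtr1a was 1 of 431 genes or transcripts found on the transgenic array only with a bound of at least 2-fold, 2.5% of those detected on either array. By its bound it held rank 61 among 931 detected on the transgenic array only.

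**Figure D2:**
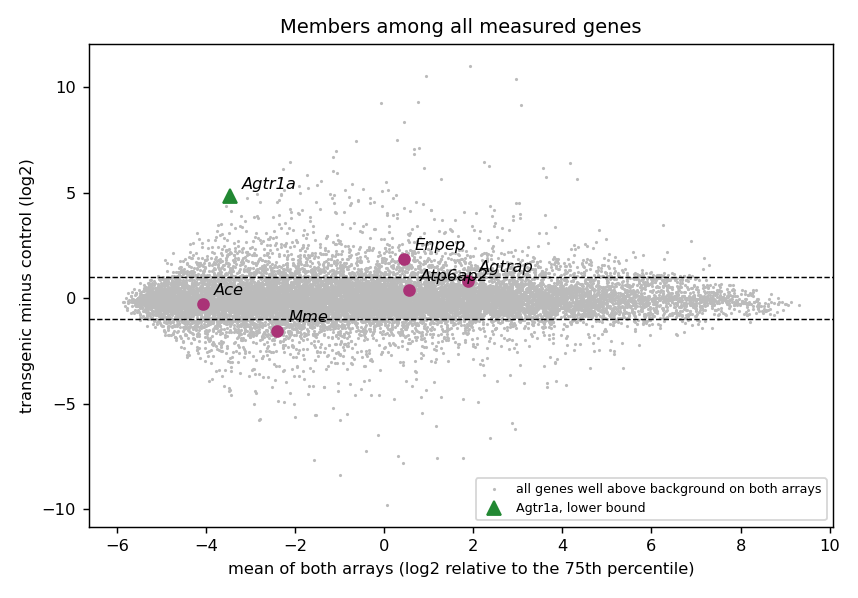
Difference between the arrays (transgenic minus control, log2) against the mean of both arrays (log2 relative to the 75th percentile) for the 15502 genes or transcripts detected on both arrays (grey) and the 5 members among them (purple). The triangle is the lower bound of Agtr1a (4.84 log2), placed at the mean of its transgenic signal and the lowest detected control signal, and dashed lines mark 2-fold. Enpep (1.87) and Mme (-1.56) lie outside the dashed lines, inside a wide cloud of other genes.

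These differences rested on the scaling. On the 8 detected E1A spike-in probes, RNAs added during labelling, the transgenic array was dimmer by 0.14 to 1.00 log2. Scaling on them moved the median of all genes to 0.91 log2, with 6926 genes higher and 378 lower by at least 2-fold in place of 1628 and 1590. The step is the same for every gene, so ranks among genes stay and all values move up. Under spike-in scaling Enpep came to 2.85 log2, Agtrap to 1.79, Atp6ap2 to 1.39, Ace to 0.72 and Mme to -0.58, so that Ace changed its sign, Mme left the size rule, and Agtrap and Atp6ap2 passed it. The labels do not state how much spike-in each sample received.

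**Figure D3:**
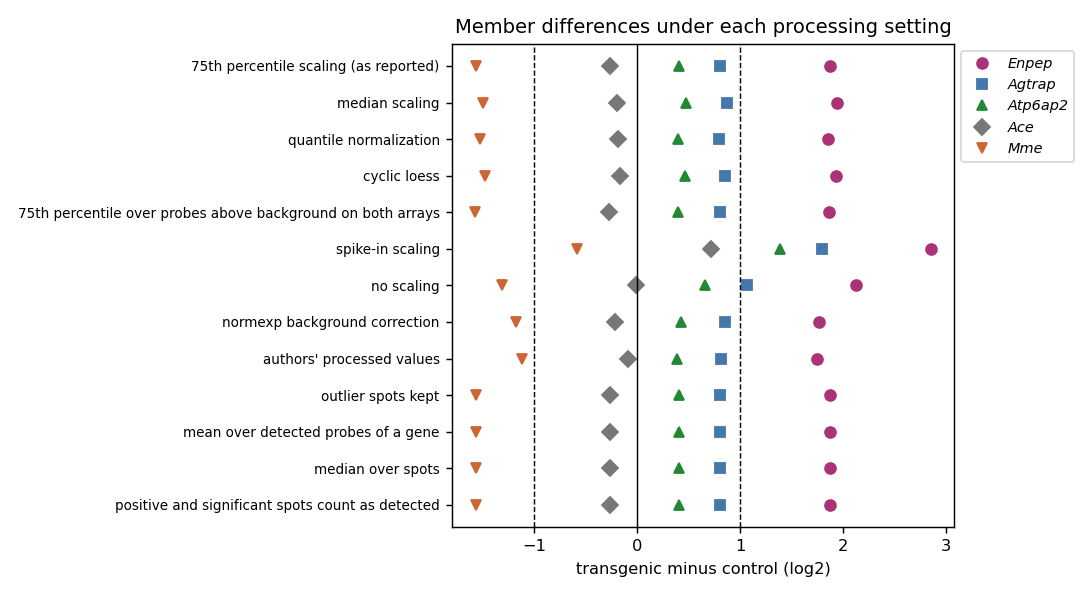
Difference (transgenic minus control, log2) of the 5 members detected on both arrays under the reported setting and 12 alternatives. Each symbol is a gene and dashed lines mark 2-fold. Enpep stays between 1.74 and 2.85 and Mme between -1.57 and -0.58, while Ace changes its sign under spike-in scaling (0.72).

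Further genes that make or break angiotensin peptides, or bind them, were described from a list of 18, of which 17 had a probe. Of these, 10 were detected on both arrays, with a median of 0.31 log2. By the size rule 1 was higher and 0 lower, beside 10.5% and 10.3% over all genes, so this count lies near those shares. The gene past the size rule was Igf2r, a sorting receptor that can bind prorenin, at 2.14-fold higher (7275 units in control and 18587 in transgenic). The peptidases of the list lay within 2-fold as scaled here. Under spike-in scaling Prep (1.66), Rnpep (1.61), Ctsd (1.59), Dpp3 (1.56) and Prcp (1.03) passed it, and Thop1 (0.85) and Nln (0.95) turned to the higher side. Prep, which can form angiotensin-(1-7), differed by 0.68 log2, Rnpep, an aminopeptidase for basic residues, by 0.62, Dpp3, which degrades angiotensin peptides, by 0.58, and the lysosomal protease Ctsd by 0.60. Thop1 (-0.14), Nln (-0.03), Prcp (0.05) and Ctsa (0.01) differed by less than their modelled errors of 0.20 to 0.25 log2. Anpep, aminopeptidase N, which cuts angiotensin III, was lower by -0.61 log2, and its sign turned under spike-in scaling (0.38). Not well above background on either array were the receptors Mas1 and Mrgprd, the mast cell proteases Cma1, Cpa3 and Mcpt1, the neutrophil protease Ctsg, and the kallikrein Klk1.

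**Figure D4:**
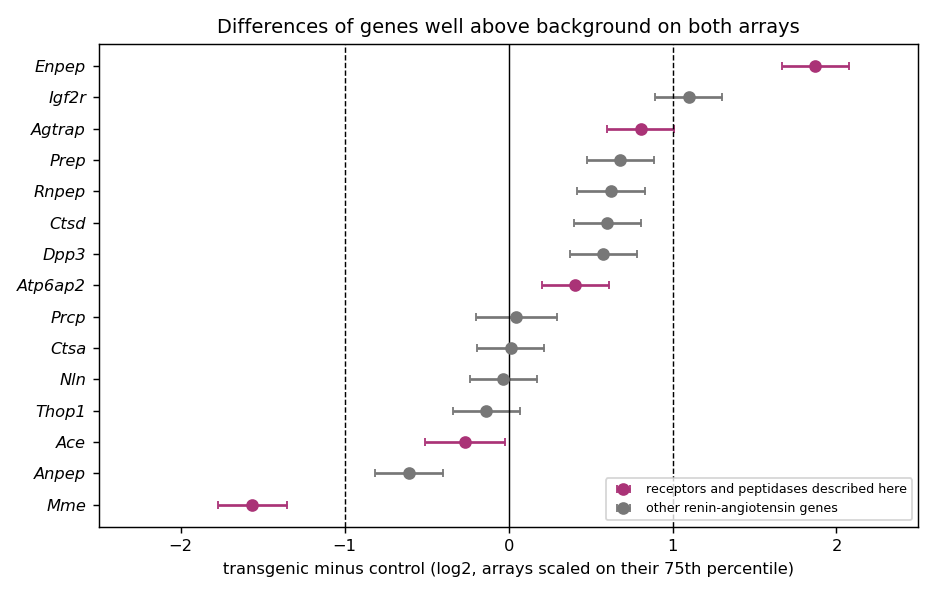
Difference (transgenic minus control, log2) of the 5 members (purple) and the 10 other renin-angiotensin genes (grey) detected on both arrays, with the modelled error of the spots as bars. Dashed lines mark 2-fold. Enpep (1.87), Igf2r (2.14-fold) and Mme (-1.56) lie outside them.

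Enpep and Mme were then set beside their enzyme families. Of 6 M1 aminopeptidases detected on both arrays, Enpep alone was past 2-fold as scaled here. The other genes ran from Aopep (-0.67 log2) to Rnpep (0.62), with a family median of -0.02. Under spike-in scaling the family median was 0.97 log2, and further genes passed 2-fold, Rnpep among them. Of 4 genes of the M13 and M2 families detected on both arrays, Mme alone was past 2-fold as scaled here. Under spike-in scaling Mme left the size rule (-0.58), Ecel1 passed it on the higher side, and the median of the 4 was 0.84 log2. The endothelin-converting enzyme Ece1, which is built like neprilysin, differed by -0.02 log2 and Ecel1 by 0.04. Its relative Ece2 was detected in control only, and was 2.25-fold lower as scaled here by the ratio to its own transgenic signal (19.1 units). It too would leave the size rule under spike-in scaling. Atp6ap2 was set beside the other V-ATPase subunits. Of 17 detected on both arrays, Atp6ap2 included, the median was 0.04 log2. Atp6v1b2, a subunit of the catalytic head, was 2.51-fold higher, Atp6v0a1 and Atp6v0d1, of the membrane sector, differed by 0.80 and 0.74, and Atp6v0b by -0.67. Atp6ap1, the other accessory subunit, differed by 0.32 log2, close to the 0.41 of Atp6ap2.

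Genes that carry the signal of type 1 receptors into the cell, or shut it off, were taken from a list of 40. The list also holds the type 2 receptor partner Mtus1. Of 31 detected on both arrays, 4 were higher and 4 lower by at least 2-fold, and the median was -0.01 log2. The shares over all genes were 10.5% higher and 10.3% lower, so these counts lie near the background, and the genes below are given as single values. Itpr1, the calcium channel opened by inositol trisphosphate, was 8.57-fold lower (11850 units in control and 1649 in transgenic) and -2.57 log2 on another probe, while its relative Itpr3 was 3.48-fold higher. Mtus1, which binds the type 2 receptor, was 4.47-fold lower and -1.43 log2 on another probe. Rgs2, which shuts off Gq proteins and is itself induced by angiotensin II, was 3.96-fold higher, with 1119 units in control and 5283 in transgenic. Among phospholipase C genes Plcb1 was at least 7.49-fold higher, at background in control, but another Plcb1 probe was not well above background on either array. Plcb4 was at least 3.54-fold lower, at background in transgenic. Of the Gq proteins, named after their values were seen, Gnaq was 3.04-fold lower and Gna11 differed by 0.54 log2. Under spike-in scaling Gnaq and the Plcb4 bound would leave the size rule. The receptor kinase Grk2 and the arrestins Arrb1 and Arrb2 differed by -0.01, 0.20 and 0.21 log2.

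A list of 31 genes described as responding to angiotensin II in vascular, cardiac or adrenal cells was read the same way. Of 27 detected on both arrays, 10 were higher and 5 lower, against the shares of 10.5% and 10.3% over all genes, with a median of 0.24 log2. Nox1, a catalytic subunit of NADPH oxidase, was 46.2-fold higher, the prostaglandin synthase Ptgs2 26.6-fold and the cytokine Il6 23.6-fold higher. On the other side the matrix phosphoprotein Spp1 was 18.4-fold lower, and Ccn2 and Edn1 were 3.03-fold and 2.99-fold lower (-1.60 and -1.58 log2). Both of these lie close to the -1.56 of Mme, which left the size rule under spike-in scaling. Other genes of the list were higher, among them Nr4a2 (3.56 log2) and Ccl2 (3.44 log2). Postn (-3.62 log2) and Col3a1 (-2.51 log2) were lower. Nox4 was detected in control only (at least 56.1-fold lower). The adhesion molecule Vcam1 was 5.14-fold higher by the ratio to its own control signal, which was not well above background (18.4 units). These genes answer to many other signals, and the part of angiotensin receptors in their differences was not tested.

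Markers of the labelled cell type were present. Of 14 stromal markers, 12 were detected on both arrays, among them Thy1 (2396 units in control and 4352 in transgenic), Cd44, Col1a1 and Pdgfrb, and Lepr was on neither. Cxcl12, a chemokine that holds blood stem cells in marrow, was 8.55-fold higher, and 5.79 log2 on another probe. Eng was 5.22-fold and Pdgfra 3.30-fold higher. Itgb1 was 2.48-fold lower as scaled here, and would leave the size rule under spike-in scaling. The median of the 12 stromal markers was 0.43 log2. Of them, 4 were higher and 2 lower by at least 2-fold, beside 10.5% and 10.3% over all genes. Summed over the list the signal was 459632 units in control and 339383 in transgenic. That sum is carried mostly by bright probes such as Col1a1 and Col1a2, the latter at 194668 and 109843 units. All sums here and below are of signals before scaling, when the transgenic array was the brighter one by 0.25 log2. Markers of other cells moved between the arrays too. Of 11 pericyte and smooth muscle markers, cells in which Agtr1a and Enpep are known to be expressed, 9 were detected on both arrays, 6 of them lower and 0 higher, beside 10.3% and 10.5% over all genes (median -1.42 log2, with -0.44 under spike-in scaling). Myh11, the smooth muscle myosin, was 15.1-fold lower, Mcam 7.05-fold, Cspg4 5.62-fold and Acta2 4.14-fold lower. The summed signal of this list was 363040 units in control and 128864 in transgenic, and the pericyte marker Rgs5 was at background on both. Of 16 macrophage markers, 10 were detected on both arrays, 6 lower and 2 higher, beside the same shares over all genes, and 3 more in control only. Lyz2, the macrophage lysozyme, read 8372 units in control and 66.3 units in transgenic. Tyrobp was 46.1-fold and Fcer1g 22.3-fold lower, and C1qa was detected in control only, at least 99.4-fold lower. In the other direction, Cd14 was 3.44-fold and Cd68 2.995-fold higher. The sum of this list was 18132 units in control and 5606 in transgenic, and Itgam, Cd163 and Mrc1 were at background on both.

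Neprilysin is also the antigen CD10 of early B cells, and glutamyl aminopeptidase marks early B cells in the mouse. Of 8 B-lineage markers with a probe, 2 were detected, Pax5 (1126 units in control and 712 in transgenic) and Ebf1 (88.0 and 170.1 units), and the list summed to 1247 and 913 units. The markers Cd79b, Rag1, Rag2, Dntt, Blnk and Il7r were at background on both arrays, as was the leukocyte marker Ptprc. Of 6 markers of all leukocytes and progenitors 3 were detected, with sums before scaling of 720.1 units in control and 829 in transgenic. After scaling, Coro1a was 5.90-fold lower and Cd53 5.69-fold higher, and the median of the 3 was -0.95 log2. Of 9 neutrophil markers with a probe, cells that carry neprilysin as well, Camp alone was detected (49.8 and 2441 units), and S100a8, S100a9, Elane and Csf3r were at background. Of 8 endothelial markers with a probe, 2 were detected on both arrays and Pecam1, Kdr, Tek and Tie1 on neither. The list summed to 819.9 units in control and 234 in transgenic, of which Erg alone read 556 and 31.5 units. Of 9 adipocyte markers with a probe, cells that can make angiotensinogen, 3 were detected on both arrays, and Adipoq, Fabp4 and Lep were on neither, with sums of 1164 and 1437 units. Lpl was 31.0-fold higher, Cebpa and Pparg were 6.81-fold and 6.76-fold lower, and the median was -2.76 log2. The part of these cell types in the differences of Agtr1a, Enpep and Mme was not tested.

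**Figure D5:**
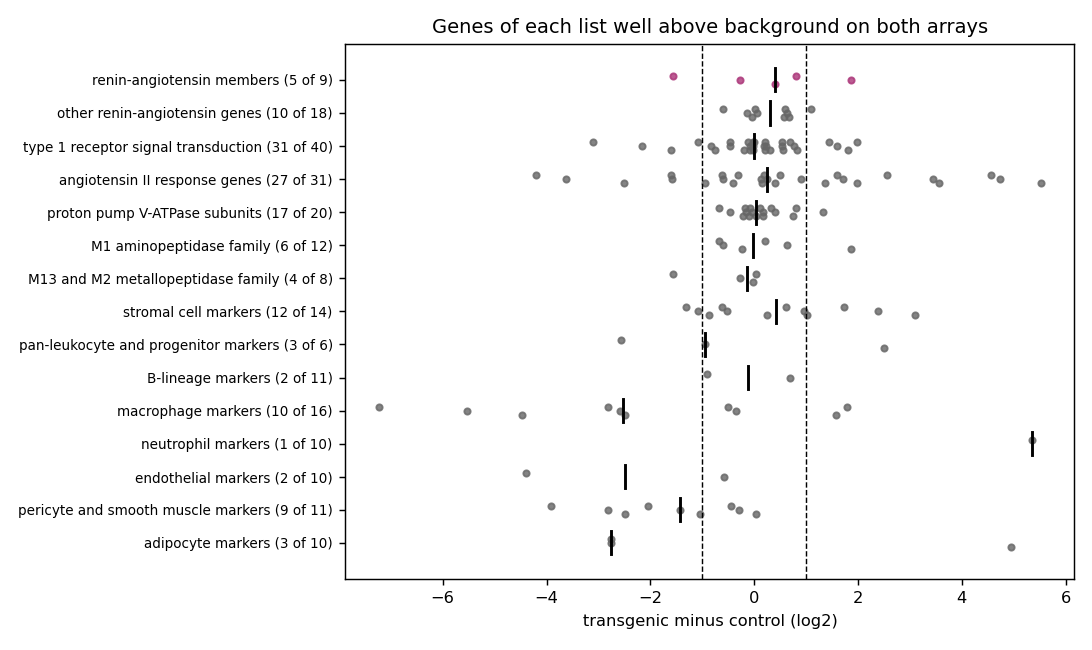
Difference (transgenic minus control, log2) of the genes detected on both arrays in each of 15 lists, with the number plotted of the number listed in parentheses. Points are genes, black bars list medians and dashed lines 2-fold. The renin-angiotensin genes (purple, median 0.41) spread to either side of 0, and the pericyte and smooth muscle markers lie mostly to the left (median -1.42).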

How the data were processed

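Total RNA labelled with Cy3 from 1 control and 1 transgenic sample was hybridised to 1-colour Agilent rat arrays. Per the file headers, the deposited spot intensity values and their 0 or 1 flags were made with Feature Extraction 11.0.1.1, with background subtracted and no normalization between arrays. A table of the authors' processed log2 values (23153 probes) was deposited too. How it was normalized and centred is unknown.

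Spots flagged as outliers (446 in control, 505 in transgenic, of 58717) were left out, log2 signals were averaged per probe, and each array's 75th percentile was subtracted (Python 3.11.15, pandas 2.3.3). Accessions without versions were matched to RefSeq symbols of GRCr8. The brightest detected probe stood for a gene. Quantile, loess and normexp (offset of 50) alternatives used limma 3.58.1, and the averaging was tested on simulated data. Normexp was run on median signals, since the files hold no mean signals, and this alternative and that on positive and significant spots were chosen after seeing the data.

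All members and all measured genes of the second renin-angiotensin list are named. Of each other list up to 4 genes by absolute difference and up to 2 by bound could be named, besides markers at background. Some genes that this rule allows were left out, in the V-ATPase list and the marker lists. Gnaq, Gna11, Grk2, Arrb1, Arrb2, Ccn2, Edn1, Nr4a2, Ccl2, Postn and Col3a1 fall outside this rule. So do Thy1, Cd44, Col1a1, Col1a2, Pdgfrb, Cd14, Cd68 and Atp6ap1, and all of these were picked with their values in view. The members, lists and motifs were chosen with earlier results of these data known. Of the listed genes, 4 are not reported here and are left out of all list counts. The number of arrays limits the precision.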

Additional observations from a re-analysis of the deposited data

How the results depend on the processing

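With 1 array per group, only technical limits could be examined. The count of 2 members past 2-fold was 3 with a 1.5-fold rule and 0 with a 4-fold rule. The median of the members, 0.41 log2 as reported, became 1.39 with spike-in scaling and 0.66 with no scaling. The Agtr1a bound, 4.84 log2 as reported, became 5.82 with spike-in scaling and 2.70 with normexp background correction. Plain differences to the dim control signal, which are no bounds, were 5.44 as scaled here and 2.81 in the authors' processed values. The offset of normexp is added to both arrays and shrinks ratios of dim probes. For the authors' values the cause was not tested. Enpep was past 2-fold in 13 of 13 settings and Mme in 12 of 13, the reported setting included. Some of these settings could not change the values. Each gene had 1 probe, detected on both arrays and without outlier spots. Keeping outlier spots, averaging probes and the looser detection flag therefore returned the reported differences. The normexp correction on mean signals was not run. No paired analysis was possible because each group had 1 array. No probe under about 15 units was well above background, though some such spots were positive and significant, as for Agtr1a in control.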
